A study of Mus musculus with 6 samples.

Results

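Heat shock proteins and their partners fold, hold and refold other proteins in the cytosol, the nucleus and the mitochondrion. The transcription factor HSF1 raises many of their genes together when unfolded proteins accumulate, by binding promoters that carry inverted repeats of the letters GAA. HSP70 proteins bind exposed stretches of a client with help from HSP40 proteins, HSP110 proteins and BAG proteins exchange their nucleotide, HSP90 takes over signalling clients with its own co-chaperones, and the barrel-shaped chaperonins CCT and HSP60 enclose whole proteins. Liver cells depend on these machines for a high rate of protein synthesis and for mitochondrial import.

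The genes described are 41 chaperone genes picked by name, namely HSF1, the HSP70, HSP90, HSP40 and small heat shock proteins, co-chaperones and chaperonin subunits. All probe sets whose gene symbol on the platform is one of them were taken, which gave 103 of the 45037 probe sets on the array and 38 of the 18193 genes tested. Hsf1 itself, Hsp90ab1 and Ptges3 had no probe set paired with them alone and were not analysed here. The livers came from untreated female mice aged 8 weeks, 3 of the inbred strain NZB/BinJ (NZB) and 3 of the inbred strain SM/J (SM), with 1 array per mouse. All 6 mice ate chow from weaning at 3 weeks, fasted for 4 hours and had the liver perfused with 50 mL of saline, so neither strain served as a heat-stressed or drug-treated group. Values are log2 expression, and differences are NZB minus SM with the standard error (SE) of a limma fit over all genes. A difference counted as a call, higher or lower in NZB, if the p adjusted by Benjamini and Hochberg over all 18193 genes was under 0.05.

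The array of SM replicate 2 read 7.32 for Xist, the RNA of the inactive X chromosome, against 12.61 to 12.91 on the other 5 arrays. The 9 probe sets of Y-linked genes read at most 5.67 on any array, which was used as a mark of background. Of 8 hepatocyte markers 7 were measured, 2 of these were lower in NZB, and the list mean was 13.87 to 13.95 in NZB and 14.06 to 14.09 in SM. The lower ones were Tat, a tyrosine aminotransferase gene (-0.73, adjusted p = 0.000625), and Hnf4a, a hepatocyte transcription factor gene (-0.38, adjusted p = 0.0113). Over the 7 hepatocyte markers the median difference was 0.018, with 4 above 0 and 3 below, so the list mean does not stand for most of them. Among markers of other cells, 5 of 8 Kupffer cell and macrophage genes were higher in NZB and 1 was lower, with a mean level of 9.30 to 9.55 in NZB and 9.08 to 9.24 in SM. T and NK cell markers were higher in 4 of 5 cases (6.30 to 6.36 in NZB and 5.99 to 6.08 in SM), B and plasma cell markers in 4 of 6 (6.73 to 7.08 in NZB and 5.89 to 5.95 in SM) and neutrophil markers in 3 of 4 (6.99 to 7.32 in NZB and 6.58 to 6.70 in SM). Of 6 endothelial markers 2 were higher and 2 lower (8.68 to 8.81 in NZB and 8.62 to 8.70 in SM), of 4 pancreatic acinar markers 2 were higher (7.0 to 7.22 in NZB and 6.81 to 6.91 in SM), and of 3 erythroid markers 1 was lower (6.12 to 6.41 in NZB and 6.51 to 6.69 in SM). That erythroid gene differed by -1.09, while the other 2 lay above 0. The part of these cells in the chaperone values was not tested, and in bulk liver fewer cells of a type and less RNA per cell cannot be told apart.

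The heat shock chaperones were mostly lower in NZB liver. Of the 38 measured genes, the test called 21 lower in NZB and 1 higher, and 16 did not pass. Among all genes tested 21% were called, 12.6% lower and 8.47% higher. The median difference over the chaperones was -0.24, against 0.021 over all genes. Most chaperones are bright on these arrays, and bright genes in general were called lower more often. Among all genes with a mean log2 level above 8, 24.6% were called lower and 9.81% higher, with a median difference of -0.079. All 21 chaperones called lower lay above that level, where 33 chaperones were measured, with a median of -0.26. The arrays of the strains did not overlap for 24 of the 38 chaperones, against 39.4% of all genes. Above a mean of 8 they did not overlap for 23 of the 33 chaperones and for 3770 of all 7094 genes.

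**Figure D1:**
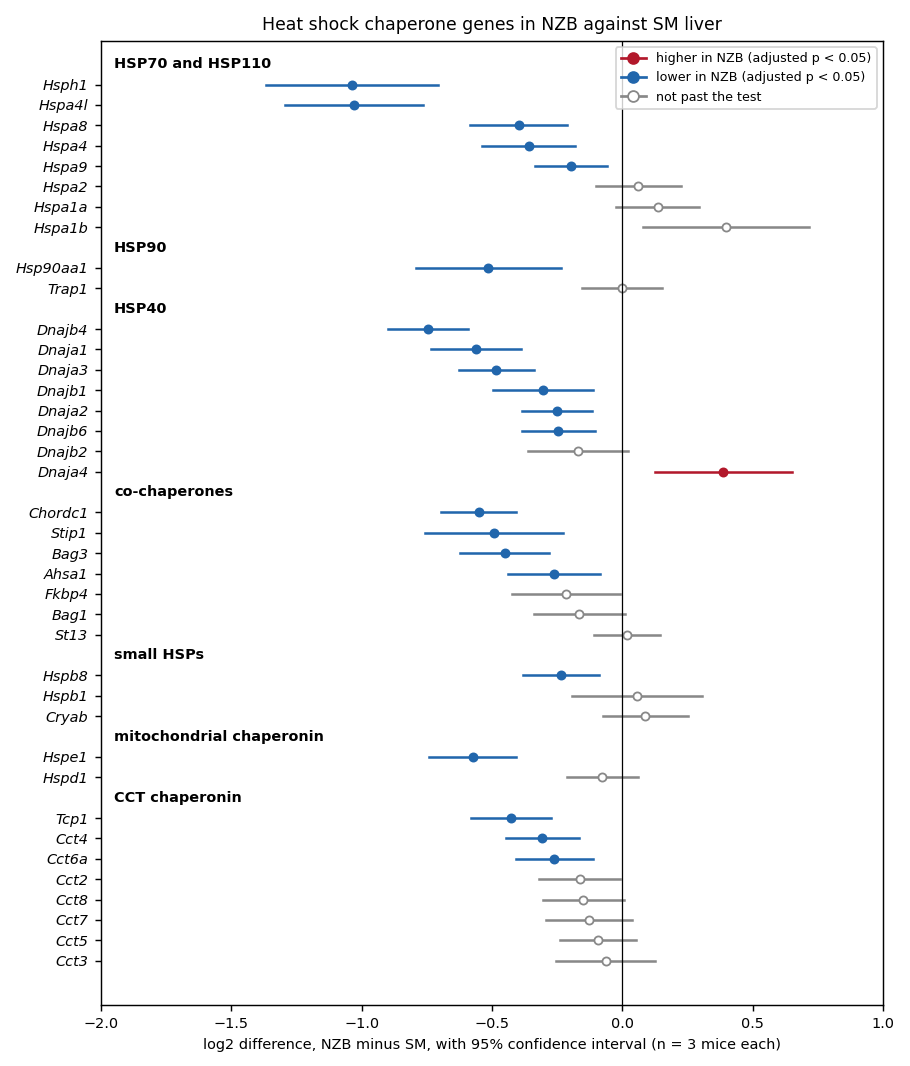
Log2 difference between NZB and SM liver (x axis, NZB minus SM) for the 38 measured chaperone genes, grouped by role, with 95% confidence intervals of the limma fit and 3 mice per strain. Filled points passed the test, and 21 of them lie left of 0 and 1, Dnaja4, lies right of it.

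Without the array of SM replicate 2 the chaperones called lower numbered 13, all of them among the 21, with a median difference of -0.22, while 8.30% of all genes were called lower. Their number was also 13 without NZB replicate 1 and 14 without NZB replicate 3, where 10.4% and 8.1% of all genes were called lower. NZB replicate 1 gave the lowest of the 3 NZB readings for 14 of the 21 genes called lower. Of those 21, 11 stayed past the test with each of the 6 arrays left out in turn: Hsph1, Hspa4l, Hspa8, Dnajb4, Dnaja1, Dnaja3, Hspe1, Chordc1, Bag3, Tcp1 and Cct4.

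Among HSP70 and HSP110 genes, 5 of 8 were lower in NZB, including all 3 members of the HSP110 branch. Hsph1 encodes HSP110 (also called HSP105), a nucleotide exchange factor of HSP70 and a textbook target of HSF1, and had the largest difference of the 38 genes. Hsph1 read 8.63, 9.24 and 9.07 in NZB replicates 1, 2 and 3, against 10.19, 9.85 and 10.02 in SM replicates 1, 2 and 3. Every NZB mouse lay below every SM mouse, with NZB replicate 1 the lowest of all, and the level of Hsph1 was 2.05 times lower in NZB (-1.04, SE 0.15, adjusted p = 0.0013). Hspa4l, which encodes an HSP110 relative first studied in testis, read 7.41, 7.77 and 7.74 in NZB, against 8.84, 8.70 and 8.47 in SM. The gap between the strains was wider than the range within either, with a level 2.04 times lower in NZB (-1.03, SE 0.12, adjusted p = 0.000429). Hspa4, the third HSP110 gene, read 9.60, 9.76 and 9.59 in NZB, against 10.13, 9.98 and 9.90 in SM (-0.36, SE 0.080, adjusted p = 0.012). Its strains were separate but close, and the call ended without NZB replicate 3 (adjusted p = 0.0534).

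The HSP70 genes that are active in unstressed cells, Hspa8 and Hspa9, were lower too. Hspa8, the constitutive cytosolic HSP70 (HSC70), read 11.86, 11.88 and 12.02 in NZB, against 12.17, 12.35 and 12.44 in SM, a 1.32-fold lower level in NZB (-0.40, SE 0.082, adjusted p = 0.00872). Hspa8 has many processed pseudogenes that a probe set may also read. When the probe sets marked for cross-hybridization were left out, Hspa8 rested on a dimmer one with a larger difference and a larger spread, and lost its call (-0.55, SE 0.33, adjusted p = 0.284). Hspa9, the mitochondrial HSP70 (mortalin), read 11.49, 11.52 and 11.52 in NZB, against 11.76, 11.73 and 11.64 in SM (-0.20, SE 0.061, adjusted p = 0.0475). The difference for Hspa9 was the smallest that was called, and leaving out any array other than SM replicate 3 ended the call (adjusted p = 0.107 to 0.138). It also ended under 4 other settings (adjusted p = 0.0512 to 0.177), the replicate block among them. None of the 5 probe sets of Hspa9 passed in the fit over all probe sets (differences -0.23 to 0.11, adjusted p = 0.0597 to 0.491).

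The stress-inducible HSP70 genes did not pass the test, and whether they differ from their constitutive relatives was not tested. Hspa1b, whose RNA is scarce in resting cells and rises steeply under heat, read 8.06, 7.40 and 7.87 in NZB, against 7.30, 7.38 and 7.45 in SM. NZB replicates 1 and 3 lay above all SM mice while NZB replicate 2 lay among them, and the difference did not pass the test (0.40, SE 0.14, adjusted p = 0.0765). Both other probe sets of Hspa1b showed NZB replicate 2 low among the NZB arrays as well, at differences of 0.67 and 0.63 with adjusted p = 0.0709 and 0.101 over all probe sets. Without NZB replicate 2 Hspa1b differed by 0.59 and passed (adjusted p = 0.00313). It also passed with array weights on all 6 arrays (0.41, adjusted p = 0.0489). Its neighbour Hspa1a, which encodes nearly the same protein, stayed below the background mark on every array, at 4.29, 4.40 and 4.26 in NZB and 4.12, 4.28 and 4.13 in SM (adjusted p = 0.211). Hspa2, the testis HSP70, read between 5.80 and 6.02 in the 6 mice, with overlapping strains (0.062, SE 0.072, adjusted p = 0.589).

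The promoters of Hspa1a and Hspa1b are shown because they make plain how alike these genes are. Sequences are those of RefSeq for the C57BL/6J assembly GRCm38.p6, a strain other than NZB and SM, and run 5′ to 3′ from 250 bases before to 30 after the annotated start. Capitals mark matches to an 8-base core of the heat shock element, GAANNTTC or TTCNNGAA, searched on both strands.
Hspa1a (chr17:34972127-34972406, minus strand): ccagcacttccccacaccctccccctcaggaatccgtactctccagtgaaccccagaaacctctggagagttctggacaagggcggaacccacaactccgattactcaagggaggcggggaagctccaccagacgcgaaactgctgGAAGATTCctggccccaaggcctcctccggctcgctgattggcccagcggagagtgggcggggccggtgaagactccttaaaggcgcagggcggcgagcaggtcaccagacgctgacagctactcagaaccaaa
Hspa1b (chr17:34959209-34959488, minus strand): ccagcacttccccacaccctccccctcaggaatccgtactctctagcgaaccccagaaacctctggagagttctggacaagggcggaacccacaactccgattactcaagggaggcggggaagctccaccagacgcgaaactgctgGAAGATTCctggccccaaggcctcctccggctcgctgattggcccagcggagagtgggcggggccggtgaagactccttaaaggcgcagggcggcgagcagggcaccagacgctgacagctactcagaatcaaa
The 2 stretches were identical at 276 of 280 positions and held the same core. The coding sequences of the genes are also known to be near copies, so how their probe sets divide the RNA of the pair is uncertain.

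Of the 2 HSP90 genes measured 1 was lower in NZB, and of the 7 co-chaperones listed with them, which serve HSP90 or HSP70, 4 were lower. Hsp90aa1, the stress-inducible cytosolic HSP90 alpha, read 11.13, 11.69 and 11.33 in NZB, against 11.98, 11.88 and 11.83 in SM. NZB replicate 1 was again the lowest array, and the strains differed 1.43-fold (-0.51, SE 0.12, adjusted p = 0.0174). The call of Hsp90aa1 ended without NZB replicate 3, SM replicate 1 or SM replicate 2 (adjusted p = 0.0521 to 0.0686) and when its 5 probe sets were averaged (-0.29, adjusted p = 0.0924). Trap1, the mitochondrial HSP90, read 10.65, 10.54 and 10.61 in NZB and 10.65, 10.65 and 10.50 in SM. The strains overlapped, and the 95% interval of the difference was -0.15 to 0.15 (adjusted p = 0.997).

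Chordc1 encodes a zinc-binding partner of HSP90 that is induced by heat, and had the largest difference of these 7 co-chaperones. It read 8.63, 8.56 and 8.70 in NZB, against 9.13, 9.18 and 9.23 in SM, a 1.46-fold lower level (-0.55, SE 0.064, adjusted p = 0.000464). The 3 mice of each strain lay close together and the strains were far apart. Stip1, the adaptor HOP that hands clients from HSP70 to HSP90, read 8.45, 8.86 and 8.64 in NZB, against 9.35, 9.03 and 9.05 in SM (-0.49, SE 0.12, adjusted p = 0.0168). Bag3, an HSF1-induced exchange factor that links HSP70 to autophagy, read 8.82, 8.70 and 8.67 in NZB, against 9.06, 9.21 and 9.27 in SM (-0.45, SE 0.076, adjusted p = 0.00325). Both genes kept the strains apart, Bag3 with tighter groups than Stip1. Ahsa1, which speeds the ATPase of HSP90, read 10.83, 11.07 and 11.02 in NZB, against 11.32, 11.21 and 11.18 in SM (-0.26, SE 0.079, adjusted p = 0.0427). Neither of its 2 probe sets passed in the fit over all probe sets (-0.26 and -0.023, adjusted p = 0.058 and 0.907). The calls of Stip1 ended without NZB replicate 1 or 3 (adjusted p = 0.054 to 0.0606) and those of Ahsa1 without NZB replicate 1 or 3 or SM replicate 1 or 2 (adjusted p = 0.0848 to 0.123) and under 3 other settings (adjusted p = 0.0788 to 0.131).

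The other co-chaperones measured did not pass the test. Fkbp4, an immunophilin in steroid receptor complexes, differed by -0.21 (SE 0.092, adjusted p = 0.132), and Bag1, a further exchange factor of HSP70, by -0.16 (SE 0.078, adjusted p = 0.172). Both lie below 0 with strains that overlap, but without probe sets marked for cross-hybridization Fkbp4 rested on another probe set and turned to 0.23 (adjusted p = 0.0951). St13, the HSP70-interacting protein HIP, read 11.55, 11.55 and 11.55 in NZB and 11.56, 11.52 and 11.51 in SM. All 6 mice lay within a narrow range for this probe set, and the 95% interval of the difference was -0.11 to 0.15.

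HSP40 genes, which deliver clients to HSP70 and start its ATPase, held 6 lower members and 1 higher member among 8. Dnajb4, a cytosolic class B protein, had the smallest adjusted p of all chaperones. It read 9.0, 8.99 and 9.03 in NZB, against 9.63, 9.80 and 9.82 in SM, a 1.68-fold difference (-0.75, SE 0.068, adjusted p = 0.00012). The 3 NZB mice were almost the same and none came near an SM mouse. Dnaja1, a class A partner of HSC70, read 10.86, 11.07 and 11.12 in NZB, against 11.58, 11.56 and 11.59 in SM (-0.56, SE 0.077, adjusted p = 0.0011). Dnaja3, the mitochondrial HSP40 that works with Hspa9, read 9.80, 9.86 and 9.92 in NZB, against 10.35, 10.28 and 10.40 in SM (-0.48, SE 0.064, adjusted p = 0.000918). For both genes the strains were separate by more than the range within a strain. The other marked probe set of Dnaja3 passed too (-0.37, adjusted p = 0.00909 over all probe sets), and the unmarked one, which reads below the background mark, differed by -0.011 (adjusted p = 0.934 over all probe sets).

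Smaller differences were found for 3 more HSP40 genes. Dnajb1, the main heat-inducible HSP40, read 8.94, 8.92 and 9.12 in NZB, against 9.22, 9.45 and 9.22 in SM (-0.30, SE 0.086, adjusted p = 0.0331). NZB replicate 3 lay just under the lowest SM mice, and the other probe set showed -0.47 (adjusted p = 0.0061 over all probe sets). Dnaja2, a class A partner of HSC70 like Dnaja1, read 10.97, 11.04 and 11.07 in NZB, against 11.29, 11.30 and 11.24 in SM (-0.25, SE 0.060, adjusted p = 0.0175). Dnajb6, which holds back aggregation, read 10.78, 10.79 and 10.88 in NZB, against 11.02, 11.12 and 11.06 in SM (-0.25, SE 0.062, adjusted p = 0.0219). The strains were separate for both, by less than for Dnaja1. All 3 calls ended without NZB replicate 1 or SM replicate 2, and those of Dnajb1 and Dnajb6 without NZB replicate 2 also (adjusted p = 0.0963 to 0.116 for Dnajb1, 0.0606 to 0.0667 for Dnaja2 and 0.0692 to 0.0865 for Dnajb6). Quantile normalization ended them as well (adjusted p = 0.109, 0.0508 and 0.0618), and the replicate block that of Dnajb1 (adjusted p = 0.057). For Dnaja2 the difference was -0.094 when its 4 probe sets were averaged (adjusted p = 0.29) and -0.20 once the marked probe sets were left out (adjusted p = 0.0933). Dnajb2, a neuron-enriched HSP40, did not pass (-0.17, SE 0.086, adjusted p = 0.198).

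Dnaja4 was the exception among the chaperones called. It read 6.89, 7.23 and 7.0 in NZB, against 6.68, 6.42 and 6.84 in SM, 1.31 times higher in NZB (0.39, SE 0.12, adjusted p = 0.0427). The strains were only just apart, SM replicate 3 lying close under NZB replicate 1. Its call ended without NZB replicate 2 or 3 or SM replicate 1 or 2 (adjusted p = 0.0778 to 0.143) and under 4 other settings (adjusted p = 0.0532 to 0.0815). None of the 3 probe sets of Dnaja4 passed in the fit over all probe sets (differences 0.16 to 0.39, adjusted p = 0.0584 to 0.319).

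**Figure D2:**
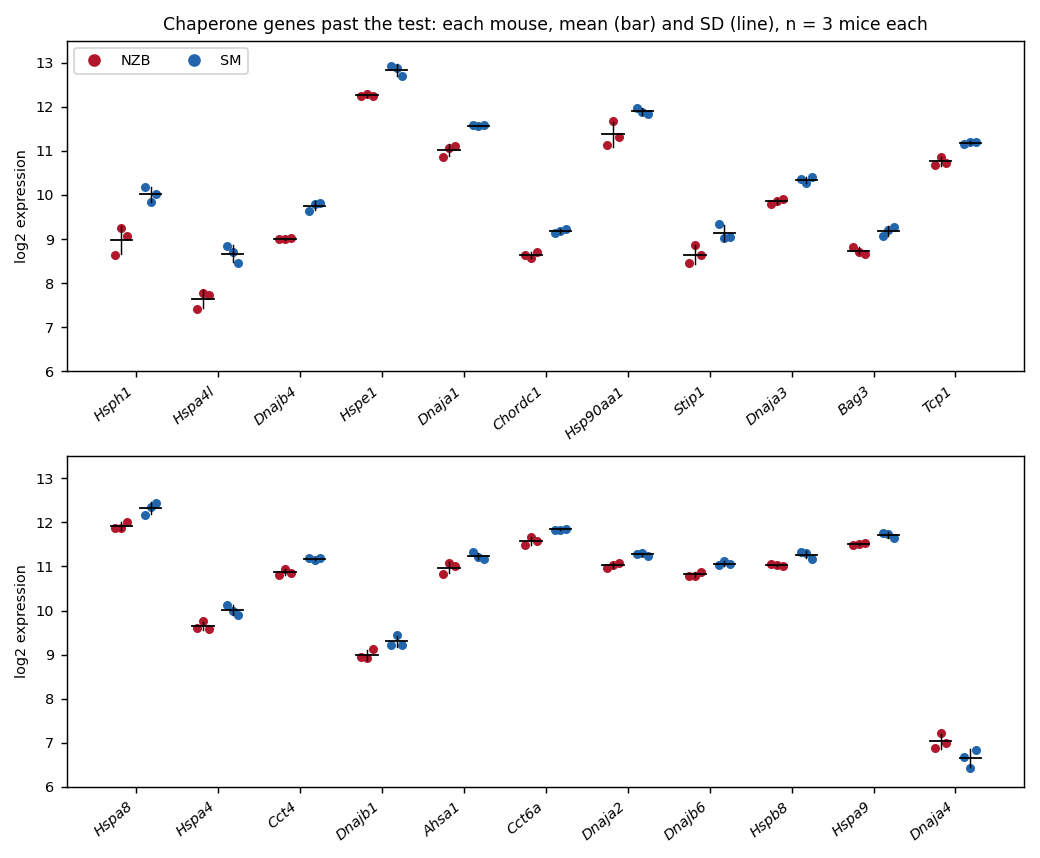
Log2 expression (y axis) of the 22 chaperone genes past the test, ordered by difference, with a point per mouse, NZB left of SM for each gene, a bar at the mean and a line of 1 SD (n = 3 each). The points of the strains do not overlap for any of these genes, and Dnaja4, at the end, is the gene with NZB above SM.

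The small heat shock proteins, which bind unfolded proteins without ATP, gave 1 called gene of 3. Hspb8, a partner of Bag3 in chaperone-assisted autophagy, read 11.06, 11.02 and 11.02 in NZB, against 11.32, 11.30 and 11.17 in SM (-0.23, SE 0.065, adjusted p = 0.0307). The strains were separate by a narrow margin, and it was no longer called once any array other than SM replicate 3 was left out (adjusted p = 0.0621 to 0.107) and after quantile normalization (adjusted p = 0.0586). Hspb1, known as HSP25 in the mouse, read 8.65, 8.97 and 9.03 in NZB and 8.69, 8.82 and 8.99 in SM, with full overlap (0.057, SE 0.11, adjusted p = 0.755). Cryab, the lens and muscle protein alpha-B crystallin, differed by 0.088 (SE 0.072, adjusted p = 0.423). Without the probe sets marked for cross-hybridization a dimmer probe set stood for Cryab and passed with a difference of 0.23 (adjusted p = 0.0417).

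The mitochondrial chaperonin consists of HSP60, the barrel made by Hspd1, and HSP10, the lid made by Hspe1, from genes that lie head to head and share a promoter. Only the lid gene passed the test. Hspe1 read 12.25, 12.29 and 12.24 in NZB, against 12.94, 12.88 and 12.69 in SM, a 1.49-fold lower level in NZB (-0.57, SE 0.075, adjusted p = 0.00084). Its other probe set read 9.36, 9.41 and 9.27 in NZB, against 10.23, 10.23 and 9.80 in SM (-0.74, adjusted p = 0.003 over all probe sets). Hspd1, from its single probe set, read 12.71, 12.81 and 12.77 in NZB and 12.88, 12.83 and 12.81 in SM (-0.077, SE 0.060, 95% interval -0.21 to 0.059, adjusted p = 0.406). The Hspe1 reading minus the Hspd1 reading of an array has no meaning as a level, since the probes differ, but it can be compared between mice. It was -0.46, -0.52 and -0.53 in NZB, against 0.060, 0.046 and -0.12 in SM. The strains did not overlap in this quantity, whose means differed by -0.50 (two-sided exact permutation test over the 6 mice, p = 0.1, the smallest that 3 against 3 can give). That separation follows from Hspe1 alone, whose gap between strains was wider than the spread of all 6 Hspd1 readings. Hspe1 has processed copies elsewhere in the genome, so part of its signal may come from them.

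Promoters were searched for heat shock elements, the letters that HSF1 is known to bind. The full motif was taken as GAANNTTCNNGAA or TTCNNGAANNTTC, which are reverse complements of each other, so both strands were covered, and neighbouring matches may overlap, and each also contains the 8-base core. It was found in 0.603% of the 32851 RefSeq promoter windows of 300 bases and in 7 of the 44 windows of chaperone genes. These windows belong to 5 of the 33 chaperone genes, out of 41, with an entry, namely Hsph1, Hspe1, Hspd1, Chordc1 and Dnajb6. Among all 27025 genes with an entry 0.662% held it. The windows are not separate sites, since Hsph1 and Dnajb6 each show the same match in 2 overlapping windows, and Hspe1 and Hspd1 share theirs. The 8-base core was found in 15.1% of all windows and in 19 of the 44. The following windows are printed with the full motif in capitals, that of the gene with the largest difference, the one shared by Hspe1 and Hspd1, and that of Chordc1.
Hsph1 (chr5:149636286-149636565, minus strand): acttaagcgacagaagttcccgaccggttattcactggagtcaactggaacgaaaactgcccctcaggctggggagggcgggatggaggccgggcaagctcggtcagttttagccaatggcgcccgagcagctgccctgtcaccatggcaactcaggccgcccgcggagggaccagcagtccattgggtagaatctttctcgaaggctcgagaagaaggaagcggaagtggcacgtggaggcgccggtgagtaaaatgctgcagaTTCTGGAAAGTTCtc
Hspe1 (chr1:55087898-55088177, plus strand): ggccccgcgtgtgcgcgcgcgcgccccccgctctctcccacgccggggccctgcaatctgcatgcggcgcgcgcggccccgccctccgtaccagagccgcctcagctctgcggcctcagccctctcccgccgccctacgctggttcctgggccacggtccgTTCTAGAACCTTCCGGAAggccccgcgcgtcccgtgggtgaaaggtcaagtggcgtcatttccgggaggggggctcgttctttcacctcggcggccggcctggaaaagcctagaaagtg
Chordc1 (chr9:18292017-18292296, plus strand): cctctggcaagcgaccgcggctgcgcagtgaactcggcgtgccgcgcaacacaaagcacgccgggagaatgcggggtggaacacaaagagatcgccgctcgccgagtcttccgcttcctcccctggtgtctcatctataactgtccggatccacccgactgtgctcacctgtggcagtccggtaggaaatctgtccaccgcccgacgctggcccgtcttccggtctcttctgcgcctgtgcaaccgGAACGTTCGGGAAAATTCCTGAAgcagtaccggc
The Hspe1 stretch shares 275 of its 280 bases with the corresponding Hspd1 stretch, read on the opposite strand, and its motif is a run of 2 overlapping copies. Chordc1 holds a run of 3 overlapping copies and Hsph1 a single one. Of the 5 genes with the full motif, Hsph1, Hspe1, Chordc1 and Dnajb6 were lower in NZB and Hspd1 did not pass the test. Of the 27 measured chaperones with a promoter entry and no full motif, the test called 13 lower and 1 higher, and the difference between these shares was not tested. Hspa4l, with nearly the same difference as Hsph1, had neither the motif nor the core in its window. A match is a string of letters in the C57BL/6J sequence and does not show that HSF1 binds there, and sequence differences of NZB and SM were not analysed here.

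**Figure D3:**
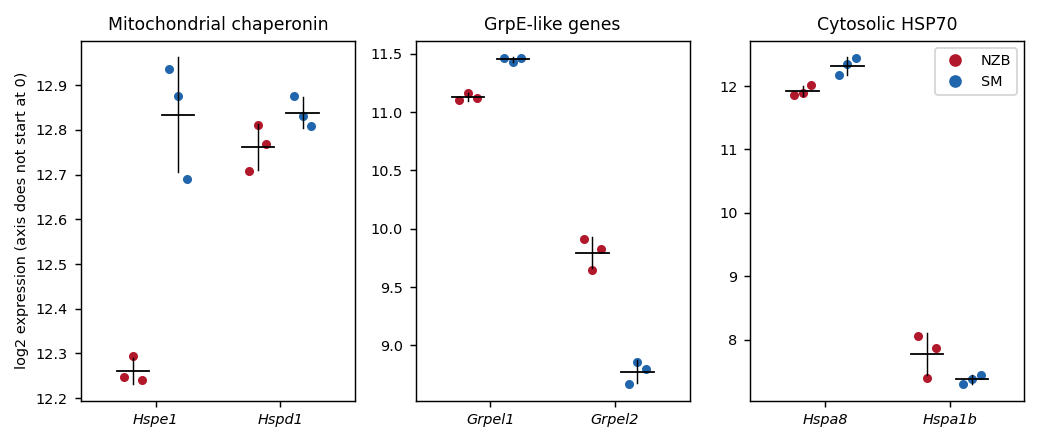
Log2 expression (y axes) in each mouse for Hspe1 and Hspd1, for the GrpE-like genes Grpel1 and Grpel2, and for Hspa8 and Hspa1b, with NZB left of SM, a bar at the mean and a line of 1 SD (n = 3 each). In each panel the gene on the left is lower in NZB, while Hspd1 and Hspa1b overlap between strains and Grpel2 is higher in NZB.

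The cytosolic chaperonin CCT, which folds actin and tubulin, is a barrel of stacked rings, and its 8 listed subunit genes were all measured. All 8 differences lay below 0, with a median of -0.16, and 3 passed the test. These genes are bright, and of the 7094 genes with a mean above 8, 4522 lay below 0. Tcp1, the founding alpha subunit, read 10.69, 10.87 and 10.73 in NZB, against 11.15, 11.21 and 11.21 in SM, a 1.34-fold lower level (-0.43, SE 0.068, adjusted p = 0.00237). Cct4, the delta subunit, read 10.80, 10.93 and 10.86 in NZB, against 11.19, 11.14 and 11.19 in SM (-0.31, SE 0.062, adjusted p = 0.00755). Cct6a, the zeta subunit, read 11.48, 11.67 and 11.58 in NZB, against 11.84, 11.82 and 11.86 in SM (-0.26, SE 0.066, adjusted p = 0.0209), and its other probe set showed -0.35 (adjusted p = 0.00491 over all probe sets). The strains did not overlap for any of these 3 genes. The remaining subunits were Cct2 at -0.16, Cct8 at -0.15, Cct7 at -0.13, Cct5 at -0.093 and Cct3 at -0.063. None of these 5 passed, with adjusted p between 0.127 for Cct2 and 0.643 for Cct3 (limma). The call of Cct6a ended without NZB replicate 1, NZB replicate 3 or SM replicate 2 (adjusted p = 0.0603 to 0.0703). Averaged over its 7 probe sets, several of which are marked for cross-hybridization, Cct4 showed -0.17 (adjusted p = 0.0527), and without marked probe sets Cct7 passed (-0.24, adjusted p = 0.0407). Under that same setting dimmer probe sets stood for Cct3 and Cct8, and their differences turned to 0.090 and 0.084. That of Cct3 also turned when its probe sets were averaged (0.0054) and without NZB replicate 1 (0.0065).

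The same comparison was run for single probe sets, since probe sets of a gene can disagree. Over all 45037 probe sets 14.8% were called, 8.69% lower and 6.09% higher in NZB. Of the 103 chaperone probe sets, 37 were called lower, 0 higher (limma, with 9 above 0 at an unadjusted p under 0.05) and 66 did not pass. Of 28 genes with several probe sets the gene fit called 18 through their brightest one, and 14 of these had a further probe set with a call in the same direction. All 5 probe sets of Hspa4l passed, with differences of -1.10 to -0.54, and so did both probe sets of Hsph1, at -1.04 and -1.04. The probe sets of Hsp90aa1 were less alike, with differences of 0.035 and -0.045 for those that read below the background mark and -0.58 and -0.51 for the brightest. Levels are not compared between probe sets, since each binds with its own strength.

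**Figure D4:**
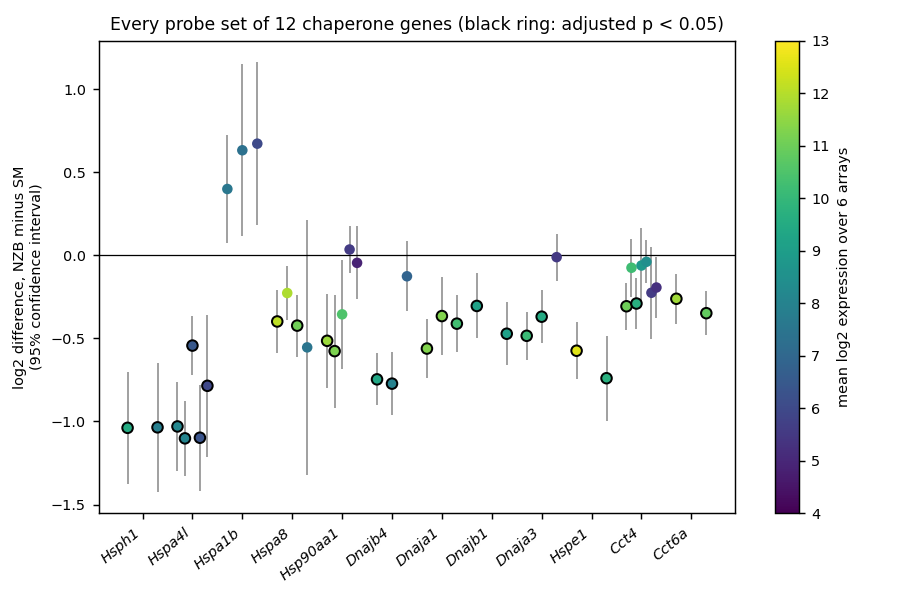
Log2 difference, NZB minus SM (y axis), with 95% confidence interval for every probe set of 12 chaperone genes, coloured by mean log2 expression over the 6 arrays and ringed where the adjusted p over all probe sets was under 0.05. The probe sets of Hsph1, Hspa4l and Hspe1 are all ringed below 0, and those of Hspa1b lie above 0 without a ring. The 12 genes were picked by hand. Not shown are Hspa9, Ahsa1 and Dnaja4, called genes of which no probe set passed, and Dnaja2, whose probe sets lie on both sides of 0.

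Around the named chaperones, 6 further lists of the folding network held 84 genes, of which 81 were measured. Here the test called 23 lower in NZB and 4 higher and 54 did not pass, which makes 28.4% lower and 4.94% higher, with a median difference of -0.11. In the same fit 55.3% of the measured chaperones, 12.6% of all genes and 24.6% of genes with a mean above 8 were lower. Apart from the other HSF and HSP genes, each further list had a mean level above 8 on every array. These lists also held dimmer genes, such as Dnajc6 with a mean of 6.30. Their share of lower genes is therefore not a like comparison with that of bright genes. The count of lower genes in these lists was 12 without NZB replicate 2, NZB replicate 3 or SM replicate 2, and that of higher genes was 1 without NZB replicate 3 or SM replicate 2 and 2 without NZB replicate 1. Without NZB replicate 2, NZB replicate 3 or SM replicate 2, 9.15%, 8.1% and 8.30% of all genes were lower. Without NZB replicate 3, SM replicate 2 or NZB replicate 1, 4.96%, 4.77% and 6.33% of all genes were higher.

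Other HSP70 co-chaperones had 4 lower and 1 higher of 10 measured. Grpel1 and Grpel2 both encode GrpE-like exchange factors of the mitochondrial HSP70. Grpel2 read 9.91, 9.65 and 9.83 in NZB, against 8.67, 8.86 and 8.80 in SM, 2.03 times higher in NZB (1.02, SE 0.084, adjusted p = 6.1e-05). Grpel1 read 11.10, 11.17 and 11.12 in NZB, against 11.46, 11.43 and 11.46 in SM, a 1.25-fold lower level (-0.32, SE 0.058, adjusted p = 0.00441). The strains were far apart for both genes, in opposite directions, and both calls held under every one of the 14 alternatives run. Bag4, which binds the HSP70 ATPase domain, was also lower (-0.45, SE 0.097, adjusted p = 0.0105).

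Among other HSP90 co-chaperones 2 of 11 were lower. The immunophilin gene Fkbp5, which glucocorticoids induce, read 9.46, 9.30 and 9.27 in NZB, against 10.21, 10.82 and 10.86 in SM (-1.28, SE 0.15, adjusted p = 0.000545). The strains were far apart for Fkbp5, SM replicate 1 being the lowest SM mouse. Nudc, which binds HSP90 and dynein complexes, differed by -0.24 (SE 0.060, adjusted p = 0.0217). Of 28 other J-domain genes 9 were lower and 1 was higher. The lower ones were led by Dnajc21, a ribosome biogenesis factor (-0.57, SE 0.068, adjusted p = 0.000523), and Dnajc7, which binds HSP70 and HSP90 (-0.47, SE 0.061, adjusted p = 0.00084). The higher one, Hscb, serves iron-sulfur cluster assembly (0.25, SE 0.073, adjusted p = 0.0369). Averaged over its probe sets Dnajc21 showed -0.15 (adjusted p = 0.0684). The calls of Nudc ended with any array other than SM replicate 3 left out (adjusted p = 0.053 to 0.0701) and those of Hscb without NZB replicate 1 or 3 or SM replicate 2 or 3 (adjusted p = 0.0574 to 0.135).

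Prefoldin, which passes new actin and tubulin chains to CCT, and its partners had 3 lower genes of 9, led by Pfdn4 (-0.44, SE 0.077, adjusted p = 0.00393) and Vbp1, which encodes prefoldin subunit 3 (-0.31, SE 0.073, adjusted p = 0.0151). Mitochondrial quality control had 3 lower and 1 higher of 9. The inner membrane protease gene Afg3l2 was lower (-0.36, SE 0.058, adjusted p = 0.0026), as was its partner Spg7 (-0.29, SE 0.080, adjusted p = 0.0289). Clpx, the unfoldase of the matrix protease ClpXP, read 11.34, 10.87 and 11.18 in NZB, against 10.82, 10.28 and 9.99 in SM (0.76, SE 0.19, adjusted p = 0.0209). SM replicate 1 came close to the NZB mice for Clpx, and without it the difference was 0.99. The calls ended for Vbp1 without NZB replicate 3 or SM replicate 2 (adjusted p = 0.0651 to 0.0655), for Clpx without NZB replicate 1 or 3 or SM replicate 2 (adjusted p = 0.0732 to 0.0768) and for Spg7 with any array other than SM replicate 3 left out (adjusted p = 0.0654 to 0.103). Without probe sets marked for cross-hybridization Spg7 rested on another probe set and read 0.0095 (adjusted p = 0.942). Averaging probe sets ended the call of Clpx as well (adjusted p = 0.243), and quantile normalization that of Vbp1 (adjusted p = 0.0588).

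Of 14 other HSF and HSP genes the test called 2 lower and 1 higher, and the median difference was 0.078. Hspa14, the HSP70 of the ribosome-associated complex, and Hspa13, a microsomal HSP70, were lower (-0.37 and -0.36, adjusted p = 0.0161 and 0.0354), and Hspa12a, a distant HSP70 relative, was higher (0.23, adjusted p = 0.0241). The paralogues of HSF1, named after their values were seen, did not pass the test, with Hsf2 at 0.19 (SE 0.098, adjusted p = 0.201) and Hsf4 at -0.15 (SE 0.073, adjusted p = 0.191). The call of Hspa14 ended without NZB replicate 2 (adjusted p = 0.058), that of Hspa13 without NZB replicate 1 or 3 or SM replicate 1 or 2 (adjusted p = 0.053 to 0.129) and that of Hspa12a without the same arrays (adjusted p = 0.0621 to 0.086). Averaging the probe sets of a gene also ended all 3 calls (adjusted p = 0.068 for Hspa14, 0.139 for Hspa13 and 0.238 for Hspa12a).

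**Figure D5:**
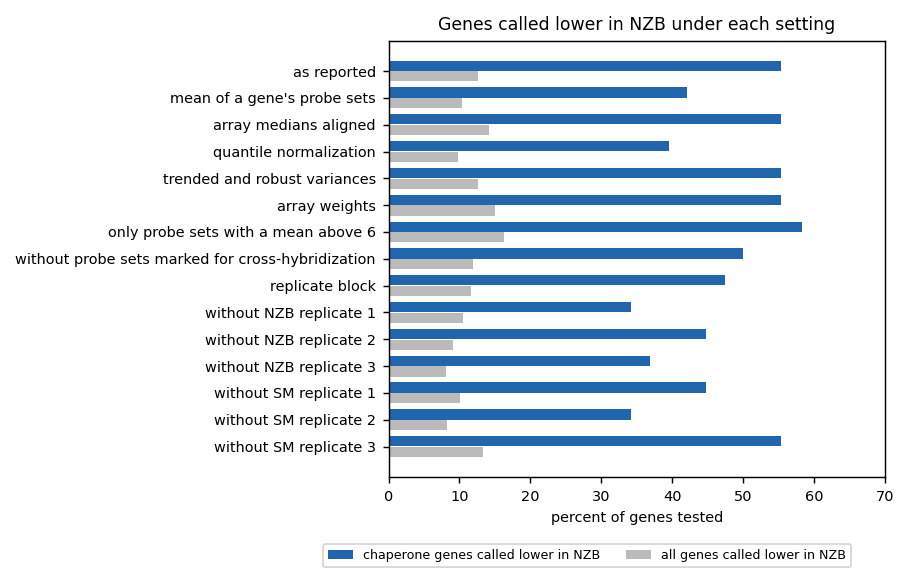
Percent of genes called lower in NZB (x axis) among the measured chaperones and among all genes tested, under each processing alternative and with each array left out (y axis). The chaperone bar is longer than the bar of all genes under every setting shown, with 13 to 21 chaperones called lower. The bar of all genes is not matched for brightness. As reported, 24.6% of genes with a mean above 8 were lower, against 12.6% of all genes.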

How the data were processed

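Liver RNA of 6 mice was read on single-colour arrays, 1 per mouse. Per the submitters' processing notes the authors used RMA, which corrects background, normalizes arrays and summarizes probes, with version and settings not given. The deposited values range up to 14.9, were therefore taken to be log2 expression, and were used without further normalization. Array medians were 6.60 to 6.66. RMA compresses differences near background, and the number of arrays limits precision.

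Probe sets were named from the platform annotation (34945 with 1 gene, 932 with several, 9160 with none), with symbols updated by Entrez ID through RefSeq (GRCm38.p6) for 34741. A gene was its brightest probe set. The test was limma 3.58.1 (R 4.3.3; lmFit, then eBayes, two-sided, Benjamini-Hochberg over 18193 genes, or over 45037 probe sets where stated). The fit was tested on simulated data. The chaperones and the other lists were chosen with earlier results of these data known, so no list was tested. Genes named are all chaperones, and in each further list up to 2 per direction with the largest called differences, and Cirbp. Alternatives were another gene summary, scaling, variance model, array weights, probe filters, the replicate block and each array left out. The mice are biological replicates per the labels.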

Additional observations from a re-analysis of the deposited data

How the results depend on the processing

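All 21 chaperones called lower in NZB had a difference below 0 under every alternative that gave them a value, and 8 (Hspa4l, Hsph1, Hspe1, Dnaja1, Dnajb4, Bag3, Chordc1 and Tcp1) passed the test under all of them. With arrays left out in turn, 13 to 21 chaperones were lower and 0 to 1 higher, 23 to 35 of their probe sets were lower and 0 to 3 higher, and 12 to 22 genes of the further lists were lower and 1 to 5 higher. Of all genes, 8.1% to 13.3% were lower and 4.77% to 7.93% higher in these runs. Quantile normalization, which brought the median of bright genes to -0.010, gave 15 lower and 0 higher chaperones with a median of -0.19, 25 lower and 1 higher probe sets, and 12 lower and 6 higher genes of the further lists. The mean of a gene's probe sets gave 16 and 0 chaperones and 14 and 2 further genes. Quantile normalization called 9.76% of all genes lower and 8.82% higher, and the mean of probe sets 10.4% and 8.62%. No chaperone was higher with array medians aligned (0), and 2 genes and 2 probe sets were higher with array weights, which also called 6 further genes higher. Aligned medians called 6.17% of all genes higher, and array weights 11.4%. Without probe sets marked for cross-hybridization 17 chaperones were lower and 2 higher, 23 probe sets were lower, and the differences of Dnajc2 and Spg7 turned to 0.015 and 0.0095, since another probe set stood for each gene. This setting called 11.9% of all genes lower and 7.46% higher. Differences that had not passed the test also changed sign, for Fkbp4 (0.23), Cct3 (0.090) and Cct8 (0.084) under this setting and for Trap1, Hspb1, St13 and Cct3 under others. The replicate block gave 18 lower and 0 higher chaperones, 31 lower probe sets and 20 lower further genes. Its shares of all genes were 11.6% lower and 7.32% higher. The labels give same-numbered arrays of the strains only the number in common. Correlations of their deviations were 0.040, -0.072 and 0.050, against -0.106 to 0.085 for arrays with unlike numbers. With 3 arrays per strain these values cannot show whether more than the number was shared. With limma, 1 to 3 chaperones lay above 0 at an unadjusted p under 0.05 where 0 were called higher. Signal over background limits Hspa1a, which read below the brightest Y-linked probe set on every array. The cause of the other changes was not tested.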

Other observations

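Of 12 immediate early genes, which respond within minutes to handling and many other stimuli, 2 were higher in NZB and 2 were lower. The transcription factor gene Egr1 read 9.75, 10.13 and 8.81 in NZB, against 7.43, 7.84 and 7.41 in SM, and was 4.01-fold higher (2.00, SE 0.28, adjusted p = 0.00121). Atf3, a stress-induced factor, was higher by 0.26 (SE 0.071, adjusted p = 0.0293), while Klf4 (-0.34, SE 0.068, adjusted p = 0.00751) and Btg2 (-0.30, SE 0.084, adjusted p = 0.0327) were lower. The calls ended for Atf3 without NZB replicate 2 or 3 or SM replicate 1 or 3 (adjusted p = 0.0705 to 0.105) and for Btg2 without NZB replicate 1 or 3 or SM replicate 2 or 3 (adjusted p = 0.0782 to 0.12).

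Cirbp, an RNA-binding protein gene that rises as temperature falls, read 8.02, 8.05 and 7.49 in NZB, against 8.34, 8.46 and 8.36 in SM (-0.53, SE 0.13, adjusted p = 0.0205). It was lower in all 3 NZB mice, with NZB replicate 3 the lowest, and its call ended without SM replicate 2 (adjusted p = 0.0769). A dim probe set of Hspa8 read 7.56, 7.31 and 6.77 in NZB and 7.14, 8.63 and 7.53 in SM, where SM replicate 2 stood above the other 5 arrays, and it did not pass the test over all probe sets (adjusted p = 0.321). It was chosen after its values were seen.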
